A study of Mus musculus with 16 samples.

Results

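The genes of fatty acid synthesis, elongation and desaturation described here were Acly, Me1, Acaca, Fasn, Scd1, Scd2, Elovl1, Elovl5, Elovl6 and Srebf1. They were taken by gene symbol, and all 10 were found among the 24420 genes of each of the 2 expression tables. The tables hold 3′ tag RNA sequencing of mouse small intestine, a method that gives about 1 read per transcript near its 3′ end. The question, as the title of the study puts it, was how loss of Mfge8 or of Cd36 alters gene expression there. The Mfge8 table held libraries of isolated enterocytes, which line the gut and absorb nutrients, 4 of them WT and 5 Mfge8 null. The Cd36 table held 4 WT and 3 Cd36 null libraries of small intestinal tissue. All groups carried the strain label C57B6. The labels name no age, sex or diet, do not say how either null allele was made, and do not tie libraries to animals. P-values below therefore measure the spread between libraries, which may be technical in part.

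In the cytosol, ATP citrate lyase (Acly) splits citrate into acetyl-CoA, malic enzyme (Me1) gives NADPH, acetyl-CoA carboxylase (Acaca) makes malonyl-CoA, and fatty acid synthase (Fasn) builds palmitate from these. Elongases of the ELOVL family then lengthen fatty acids in the endoplasmic reticulum, and the stearoyl-CoA desaturases Scd1 and Scd2 put in a double bond to give monounsaturated products. Srebf1 encodes SREBP-1, the transcription factor that turns on much of this set in liver and other tissues, and enterocytes use the products to build membranes and to re-esterify absorbed fat. The protein lost in the first experiment, MFGE8, is secreted and is a ligand of integrins. CD36, lost in the second, takes up long-chain fatty acids at the cell surface.

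Enterocyte libraries held 1618369 to 2459812 reads, and intestine libraries held 850297 to 1000694 reads. Levels are normalised reads, for which each library's counts were divided by its own size factor. Mfge8 averaged 14.8 ± 6.70 (SD, n = 4) in WT and 3.45 ± 2.43 (SD, n = 5) in Mfge8 null enterocytes, and Cd36 stood at 111 to 116 in WT and 6.48 to 15.97 in Cd36 null intestine. Whether these tags fall inside the deleted parts was not given in the sources used here. Libraries of 1 genotype differed in the Mfge8 table by 6.26 to 20.2 times the sampling variance over 16 pairs (chi-square per degree of freedom). In the Cd36 table the same figure was 0.987 to 1.117 over 9 pairs, 5 of which had a chi-square p under 0.05. Intestine libraries of a genotype thus differed by about the sampling noise, and they were summed and counted as 1 sample per genotype, with no p-value. The intestine label was checked against its markers: the 6 smooth muscle markers summed to 2.07 to 4.10 in WT and 3.19 to 9.95 in Cd36 null intestine, and the 9 enterocyte markers to 30246 to 32031. Muscle transcripts were therefore near 0 in these libraries.

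All 10 genes had reads in all 4 groups, but at unequal levels. In WT enterocytes Elovl1 was the highest at 174 ± 15.99 normalised reads (SD, n = 4), and its libraries lay above all those of Elovl6 at 65.8 ± 19.2 (SD, n = 4). Next came Elovl5 at 51.8 ± 13.8, Srebf1 at 49.6 ± 9.90, Acly at 42.7 ± 1.56, Scd2 at 42.2 ± 29.4, Me1 at 36.3 ± 8.53 and Fasn at 34.0 ± 10.8 (SD, n = 4 each). From Elovl6 down to Fasn each gene overlapped its neighbour in the order, so these levels are not told apart by their spread. Acaca at 3.49 ± 1.10 and Scd1 at 3.16 ± 3.88 (SD, n = 4) lay lower, and every Fasn library exceeded every Acaca library.

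In WT intestine the order was another one. Elovl6, which elongates palmitate to stearate, led with 180 to 232 normalised reads over the 4 libraries. It was followed without overlap by Elovl1 at 88.4 to 95.4, then Elovl5 at 67.7 to 76.4, and then Scd2 at 45.7 to 61.5. Fasn, Srebf1, Acly and Me1 were lower, at 8.21 to 23.6, and overlapped each other. The ratio of Elovl6 to Elovl1 reads within a library, on which size factors have no bearing, was 0.202 to 0.527 in WT and 0.216 to 0.463 in Mfge8 null enterocytes. In intestine it was 2.01 to 2.59 in WT and 2.20 to 2.64 in Cd36 null libraries. Elovl1 thus exceeded Elovl6 in all 9 enterocyte libraries and Elovl6 exceeded Elovl1 in all 7 intestine libraries. Sample type, RNA kit and experiment changed together between the tables and cannot be told apart. Elovl1, Elovl5 and Elovl6 together took 53.2% to 75.8% of the reads of the 10 genes in enterocytes. In intestine they took 74.2% to 76.2% in WT and 63.7% to 65.8% in Cd36 null libraries, without overlap. The share counts only reads of the 10 genes, so it also falls when other members rise. As given below, Me1 was 3.45-fold and Scd2 1.46-fold higher in Cd36 null intestine, while the elongases had ratios of 0.892 to 0.939.

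**Figure D1:**
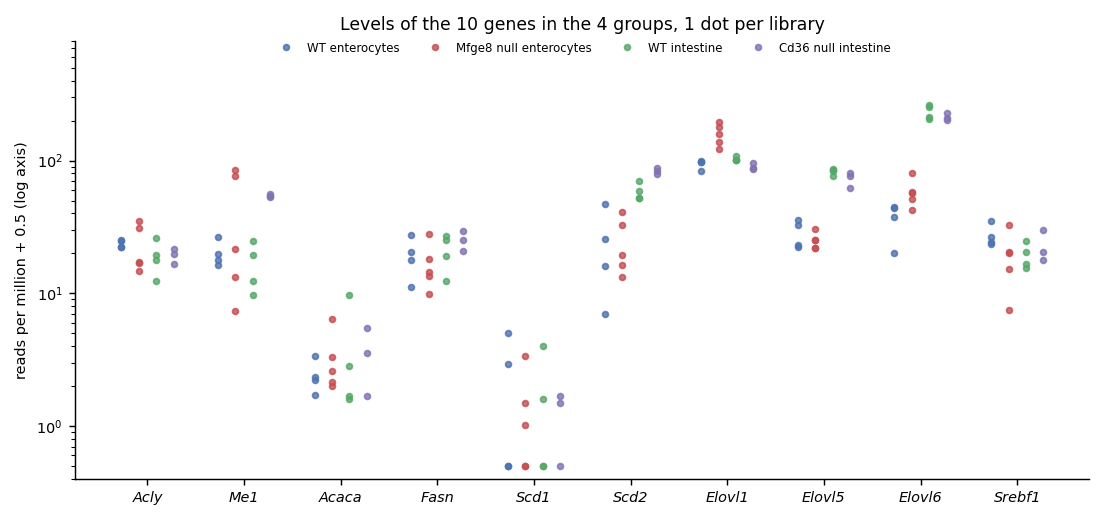
Levels of the 10 genes in all 16 libraries as RPM plus 0.5, where RPM are reads scaled to equal library totals, on a log axis, with 1 dot per library coloured by group. Elovl6 sits near 233 RPM in WT intestine against 36.0 in WT enterocytes, while Elovl1 is near 102 and 94.2, and Acaca and Scd1 lie lowest in all 4 groups.

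Scd1 was the scarcest member of the set. Its 4 WT enterocyte libraries read 0, 0, 4.70 and 7.94 normalised reads, and its 5 null libraries read 0, 0, 1.998, 1.07 and 5.74. In intestine only 4 WT and 2 Cd36 null reads were counted in all. A count of 0 allows up to 1.22 to 1.85 RPM in an enterocyte library and 2.998 to 3.53 in an intestine library, for counting error only. Scd2, its paralog in the same gene cluster (Scd2 at chr19:44293676-44306864 and Scd1 at chr19:44394450-44407709 on mm10), was read at 12.5 to 81.4 in every WT enterocyte library. How reads that match both paralogs were counted is not given in the sources used here. Acaca, which makes the malonyl-CoA used by Fasn and the elongases, had 3 to 11 reads per enterocyte library and 1 to 8 per intestine library. Both Scd1 and Acaca stayed below the filter on low values in both tables, which asked for 5 normalised reads or more in 4 libraries (3 in the Cd36 table), so neither was tested.

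**Figure D2:**
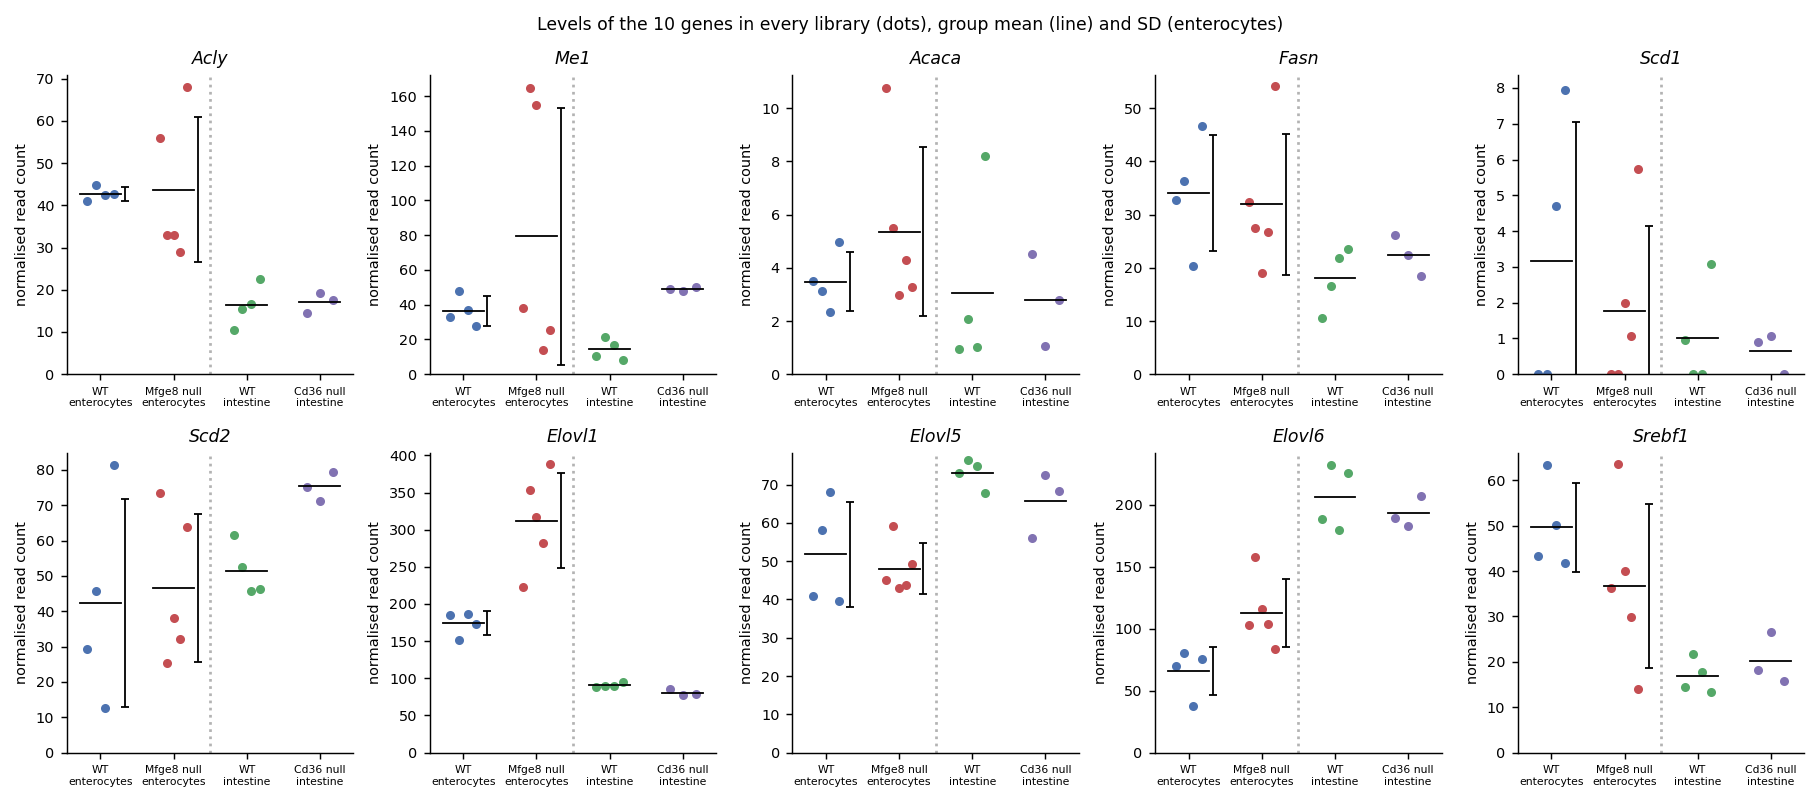
Normalised read counts of the 10 genes (1 panel each, linear axes from 0), with 1 dot per library, a line at the group mean and, for enterocytes, a bar of ± 1 SD that is clipped at 0 for Scd1. The dotted line parts the tables, which were normalised separately. Elovl1 and Elovl6 show no overlap between WT and Mfge8 null enterocytes, and Me1, Scd2 (both higher in null) and Elovl1 (lower in null) show none between WT and Cd36 null intestine.

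Loss of Mfge8 in enterocytes went with a higher level of 1 elongase, Elovl1, at 174 ± 15.99 in WT (SD, n = 4) against 312 ± 64.1 in null libraries (SD, n = 5), 1.80-fold. Elovl6 showed a similar ratio, 1.71-fold, but missed the threshold. Fasn, Acly, Elovl5, Scd2, Me1 and Srebf1 did not pass either. Of the 8 members tested, 1 passed at an adjusted p of 0.05, higher in null, in limma with Benjamini-Hochberg adjustment over 9432 genes. That compares with 3.21% of all genes tested called in either direction, 1.58% called higher and 1.63% called lower. The median log2 change of the 8 members was 0.13, beside 0.0010 for all genes tested. In 2 of the 8, Elovl1 and Elovl6, the genotypes did not overlap, as held for 6.42% of all genes tested.

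Elovl1 makes saturated and monounsaturated very long chain acyl-CoAs, the ones used in sphingolipids, and lies at chr4:118426874-118432953 on mm10. It read 185, 152, 187 and 173 normalised reads in WT 1 to 4 and 222, 353, 317, 282 and 388 in null 1 to 5. All 5 null libraries lay above all 4 WT libraries. On the log2(value + 1) scale it rose by 0.82 with a standard error of 0.17 (limma adjusted p 0.0109). The call was lost without WT 2, where limma gave a log2 change of 0.76 and an adjusted p of 0.0532. It was also lost without null 2 and 3 together, where limma gave 0.74 and an adjusted p of 0.0605. Its last 53 bases overlap the end of Cdc20 on the other strand in GENCODE M21, and the strand setting of the counting is not given. Cdc20 had 2.82 ± 1.83 in WT and 4.68 ± 2.43 in null enterocytes (SD, n = 4 and 5), and the part of the overlap in the Elovl1 result was not tested.

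Elovl6 (chr3:129532386-129638495 on mm10) read 70.1, 80.1, 37.6 and 75.5 in WT 1 to 4 and 103, 158, 116, 104 and 83.7 in null 1 to 5. The lowest null library stood just above the highest WT library. In limma its log2 change came to 0.79 (standard error 0.23), with an unadjusted p of 0.0035 and an adjusted p of 0.0789. DESeq2 on the recovered reads put it at an adjusted p of 0.0478, and over 21 alternative settings the adjusted p lay between 0.0478 and 0.257. Elovl5, the elongase of polyunsaturated fatty acids, had 40.9, 58.2, 68.2 and 39.7 in WT and 45.1, 59.2, 43.0, 43.9 and 49.2 in null libraries. The Elovl5 genotypes overlapped, with a log2 change of -0.08 and a standard error of 0.21 (limma adjusted p 0.903).

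Sequences before a listed start are shown for the members whose genotypes did not overlap in the Mfge8 comparison and for Me1, the member with the largest ratio in the Cd36 comparison. Each runs 5′ to 3′ toward the most upstream start that the RefSeq promoter table lists (build GRCm38.p6), and bases that GENCODE M21 places in the gene's own first exon were left out. Capitals mark matches to GGGCGG (the GC box) or CCAAT (the CCAAT box) on either strand. The Elovl1 stretch is chr4:118427843-118428092 on the plus strand, the Elovl6 stretch is chr3:129532136-129532354 on the plus strand, and the Me1 stretch is chr9:86695954-86696164 on the minus strand. The Elovl6 and Me1 stretches lie before the RefSeq gene span. The Elovl1 stretch lies inside that span, which begins 969 bases further upstream, but holds no Elovl1 exon in GENCODE M21.
Elovl1: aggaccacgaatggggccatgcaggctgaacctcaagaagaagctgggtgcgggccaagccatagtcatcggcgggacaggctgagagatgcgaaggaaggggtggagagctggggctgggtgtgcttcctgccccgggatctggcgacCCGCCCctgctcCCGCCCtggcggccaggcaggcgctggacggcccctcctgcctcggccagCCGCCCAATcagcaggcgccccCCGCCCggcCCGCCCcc
Elovl6: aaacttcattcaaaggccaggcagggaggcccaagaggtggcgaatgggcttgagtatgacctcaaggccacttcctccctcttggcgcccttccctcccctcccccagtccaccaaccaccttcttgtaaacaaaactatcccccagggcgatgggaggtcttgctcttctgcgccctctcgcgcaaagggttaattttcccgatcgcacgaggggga
Me1: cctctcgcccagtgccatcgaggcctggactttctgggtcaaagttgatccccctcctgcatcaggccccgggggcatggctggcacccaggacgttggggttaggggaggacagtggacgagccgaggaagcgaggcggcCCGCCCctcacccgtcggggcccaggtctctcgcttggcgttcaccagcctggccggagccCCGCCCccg
The Elovl1 stretch holds 5 GC boxes and 1 CCAAT box, which overlaps a GC box, and is 72% G or C. The Elovl6 stretch holds neither and is 58.0% G or C. The Me1 stretch holds 2 GC boxes and is 70.6% G or C. The full 250 bases before the most upstream start in the promoter table were searched for the 8 members with an entry (Scd1 and Scd2 had none). For 4 of these, Acaca, Fasn, Elovl1 and Srebf1, the window lies inside the RefSeq gene span and so not before the gene's first base. The Acaca window begins 65553 bases into that span, and those of Fasn, Elovl1 and Srebf1 begin 369, 969 and 1355 bases into theirs. The search thus did not cover the bases before the first base of these genes. GGGCGG was found in 3 (Acly, Me1 and Elovl1) and CCAAT in 4 (Fasn, Elovl1, Elovl5 and Srebf1). All 32851 windows of that length in the table held them in 32.7% and 33.8%. The sterol regulatory element TCACNCCAC, searched on both strands, was in 0 of the 8 and in 1.05% of all windows. The E-box CACGTG was in 1 (Elovl5) and in 6.02% of all windows, and TGACNNNGC, the core of the antioxidant response element, was in 0 and in 10.2%. A match is a string of letters and not a measured site.

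Members that supply acetyl-CoA and NADPH did not pass in Mfge8 null enterocytes, but the null libraries were spread more widely than WT. Acly had 40.9, 44.7, 42.3 and 42.7 in WT and 55.8, 32.9, 32.96, 28.9 and 68.1 in null libraries, so every null value lay outside the WT range, on both sides of it. It had a log2 change of -0.05 and a standard error of 0.25 (limma adjusted p 0.959). Me1 had 32.7, 47.8, 36.8 and 27.8 in WT and 38.2, 164, 155, 13.9 and 25.4 in null libraries. Null 2 and null 3 stood far above the rest, where no library exceeded 47.8, while null 4 and null 5 lay below all WT libraries. Me1 had a log2 change of 0.52 and a standard error of 0.56 (limma adjusted p 0.719), and without null 2 and 3 together it was -0.56 (limma adjusted p 0.4496).

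The synthase, the desaturase and the regulator overlapped between genotypes. Fasn had 32.7, 36.4, 20.4 and 46.7 in WT and 32.3, 27.4, 19.0, 26.8 and 54.1 in null libraries, a log2 change of -0.12 with a standard error of 0.30 (limma adjusted p 0.900). Scd2 had 29.2, 45.7, 12.5 and 81.4 in WT and 73.5, 25.2, 37.96, 32.1 and 63.97 in null libraries, with a log2 change of 0.31 and a standard error of 0.42 (limma adjusted p 0.784). All 5 null libraries of Scd2 lay within its WT range. Srebf1 had 43.3, 63.4, 50.2 and 41.7 in WT and 36.2, 63.6, 39.95, 29.98 and 13.9 in null libraries. It had a log2 change of -0.55 and a standard error of 0.32 (limma adjusted p 0.430), and 1 null library held the highest value of both genotypes. The annotated end of Srebf1 overlaps Rai1 on the other strand over 109 bases, and Rai1 had 2.44 ± 3.69 in WT and 1.003 ± 1.70 in null enterocytes (SD, n = 4 and 5).

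**Figure D3:**
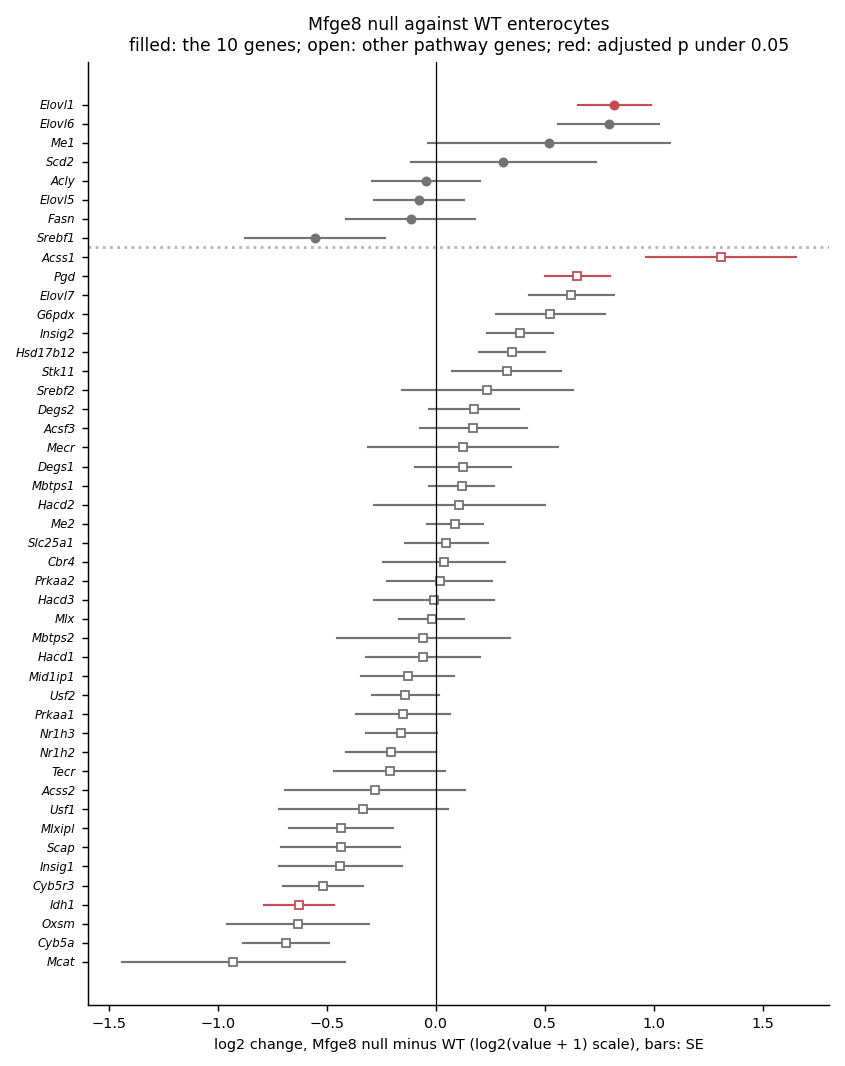
Log2 change between Mfge8 null and WT enterocytes on the log2(value + 1) scale, with bars of 1 standard error, for the 8 tested members (filled) and 38 other pathway genes (open). Red marks an adjusted p under 0.05 in limma: Elovl1 at 0.82 among the members, and Acss1 at 1.31, Pgd at 0.65 and Idh1 at -0.63 among the others.

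Of 52 other genes of the pathway, 38 were tested in enterocytes, of which 2 rose, 1 fell and 35 did not pass (limma, adjusted over all genes), beside 1.58% of all genes called higher and 1.63% called lower. All 3 that passed were among the 7 tested suppliers of acetyl-CoA and NADPH. None of 5 tested synthesis genes, 6 elongation genes, 4 desaturation genes or 16 regulators passed. The synthesis genes tested were Mcat, Oxsm, Mecr, Cbr4 and Acsf3, and none of these is among the cytosolic enzymes described above. Of the 38, 8 had an unadjusted p under 0.05, beside 1498 among the 9432 genes tested. The median log2 change of the 38 was -0.01. Pgd, an NADPH-producing enzyme of the pentose phosphate pathway, averaged 796 ± 96.6 in WT (SD, n = 4) and 1251 ± 160 in null libraries (SD, n = 5), without overlap. It rose by 0.65 on the log2 scale, with a standard error of 0.15 (limma adjusted p 0.0234).

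Idh1, the cytosolic isocitrate dehydrogenase that also yields NADPH, went the other way. It averaged 1335 in WT and 878 in null libraries, again without overlap, with a log2 change of -0.63 and a standard error of 0.16 (limma adjusted p 0.0438). Acss1, the mitochondrial acetyl-CoA synthetase, had 103, 115, 161 and 91.3 in WT and 188, 457, 622, 134 and 267 in null libraries. The 2 highest null libraries were null 2 and null 3, the ones with high Me1, and null 4 lay within the WT range. Acss1 rose by 1.31 on the log2 scale, with a standard error of 0.34 (limma adjusted p 0.0489), and without null 2 and 3 together it was 0.71 (limma adjusted p 0.151). Over 21 alternative settings Pgd was called in 14, and Idh1 and Acss1 were each called in 8. Cyb5a, the cytochrome that passes electrons to the desaturases, was picked out after its values were seen as the other pathway gene whose genotypes did not overlap. It averaged 1884 in WT and 1215 in null libraries, with a log2 change of -0.69 (limma adjusted p 0.0745).

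Marker genes of other cells were compared beside these results. In bulk samples, fewer cells of a type and less RNA per cell cannot be told apart. The 7 T cell and intraepithelial lymphocyte markers, all with reads, summed to 1134 to 3348 in WT and 3127 to 7274 in null enterocytes. The 5 goblet markers summed to 45970 to 75874.5 in WT and 30127 to 100333 in null enterocytes. The 9 enterocyte markers summed to 51275 to 76762 and 55622 to 80011, so these libraries also held many goblet cell transcripts. The 4 enteroendocrine markers summed to 1247 to 2121 and 878 to 2103. The part of T cell, goblet and enteroendocrine transcripts in the Elovl1 result was not tested. Of the 8 adipocyte markers 7 were at 0 in WT enterocytes, among them Adipoq, and only Cidec, which enterocytes also express, had reads. In null enterocytes 2 of the 8 had reads, and the list summed to 117 to 179 in WT and 109 to 260 in null libraries. The 6 markers of stem and dividing cells summed to 46.3 to 110 in WT and 58.9 to 117 in null enterocytes. Within that list Mki67 was higher in null without overlap, at 3.92 to 8.18 and 8.99 to 16.4. Pcna went the other way, with means of 32.1 and 16.1, and overlapped. Lgr5, Top2a and Cdk1 averaged higher in null and overlapped, and Olfm4 was at 0 in all 9 libraries. With a score of proximal minus ileal markers as a covariate, limma gave Elovl1 an adjusted p of 0.0227. Of the markers in that score only Slc51b did not overlap between genotypes, at 254 to 277 in WT and 358 to 569 in null enterocytes. The score thus also carries a genotype difference, and the part of position in the Elovl1 result was not tested apart from genotype.

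In Cd36 null intestine, Me1 was 3.45-fold and Scd2 1.46-fold higher than in WT, and these were the only members past the fold used here. That fold is a ratio of at least 5 to 4 in either direction with a 95% interval for counting error that leaves out 1. The other 6 members with enough reads, Acly, Fasn, Elovl1, Elovl5, Elovl6 and Srebf1, had ratios of 0.892 to 1.245, and the interval of each held 1. So 2 of 8 members were past the fold, both higher. Of 9314 genes, 12.2% were past it in either direction and 5.79% were past it on the higher and 6.37% on the lower side. The median log2 ratio of the 8 members was 0.16, beside -0.0044 for all genes. Each genotype counted as 1 sample, so these ratios compare the 2 sets of libraries and have no replicate check.

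Me1, at chr9:86581363-86695914 on mm10, had 10.6, 21.7, 16.6 and 8.21 normalised reads in WT 1 to 4 and 48.9, 47.9 and 50.0 in Cd36 null 1 to 3. The lowest null library stood well above the highest WT library. The ratio of 3.45 had a counting interval of 2.52 to 4.77, from 56 WT and 153 null reads. It lay at the 99.7th percentile of all genes ranked by ratio. Leaving out 1 library at a time gave ratios of 3.03 to 4.17.

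Scd2 had 61.5, 52.7, 45.7 and 46.2 in WT and 75.1, 71.4 and 79.6 in Cd36 null libraries. Again no library overlapped, and the ratio of 1.46 had a counting interval of 1.21 to 1.77, from 204 WT and 236 null reads. Scd1, the other desaturase, was too scarce to compare, with 4 WT and 2 null reads and a ratio of 0.631 with a counting interval of 0.0571 to 4.41.

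Fasn had 10.6, 16.5, 21.8 and 23.6 in WT and 26.2, 22.4 and 18.5 in Cd36 null libraries. Its ratio was 1.245 with a counting interval of 0.882 to 1.76, and the libraries overlapped. Acly had a ratio of 1.05 with an interval of 0.713 to 1.53, and Acaca, below the filter, one of 0.947 with an interval of 0.352 to 2.45. For the genes that make palmitate, the counts at this depth thus allow any ratio within these intervals, as far as counting error goes. Srebf1 had 14.4, 21.7, 17.7 and 13.3 in WT and 18.1, 26.6 and 15.7 in null libraries, with a ratio of 1.19 and an interval of 0.825 to 1.70. Rai1, whose end overlaps that of Srebf1, was at 21.7 to 41.6 in WT and 17.0 to 22.2 in null intestine, and the part of that overlap in the Srebf1 ratio was not tested.

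The elongases were measured more tightly. Elovl6 had 188, 232, 180 and 226 in WT and 189, 183 and 207 in Cd36 null libraries, a ratio of 0.939 with a counting interval of 0.843 to 1.04 from 814 and 605 reads. Elovl5 had a ratio of 0.894 with an interval of 0.744 to 1.07. Elovl1 had 88.4, 89.8, 89.4 and 95.4 in WT and 86.0, 77.7 and 78.6 in null libraries, a ratio of 0.892 with an interval of 0.757 to 1.05. Its libraries did not overlap although the interval held 1. Non-overlapping libraries were found for 3 of 8 members, Me1, Scd2 and Elovl1, and for 16.5% of all genes.

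**Figure D4:**
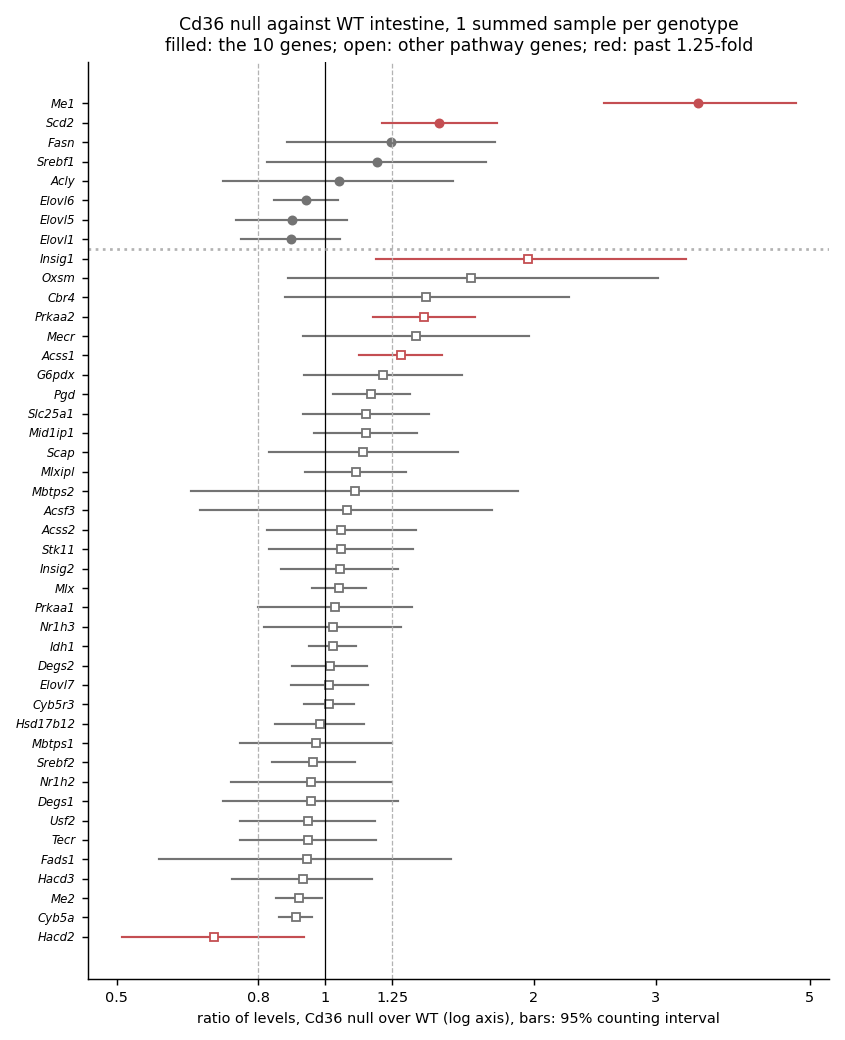
Ratio of Cd36 null to WT intestine on a log axis, with 95% counting intervals, for 8 members (filled) and 36 other pathway genes (open). Dashed lines mark a ratio of 5 to 4 in either direction and red marks genes past it whose interval leaves out 1: Me1 at 3.45 and Scd2 at 1.46 among the members, Insig1, Prkaa2 and Acss1 higher and Hacd2 lower among the others.

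Of the 52 other pathway genes, 36 had enough reads in intestine, of which 3 were past the fold on the higher side, 1 on the lower side and 32 were not past it. Of all 9314 genes 12.2% were past it in either direction, so these 4 of 36 were near the share over all genes. By role these were 1 of 7 suppliers and 2 of 15 regulators higher, and 1 of 5 elongation genes lower. None of 4 synthesis genes (Oxsm, Mecr, Cbr4 and Acsf3) or 5 desaturation genes was past it. The median log2 ratio of the 36 was 0.06. Insig1, which holds SREBP precursors in the endoplasmic reticulum and is itself an SREBP target, had 4.80, 9.29, 6.23 and 7.18 in WT and 12.7, 11.7 and 15.7 in null libraries. Its ratio was 1.96 with a counting interval of 1.18 to 3.31, from 27 and 42 reads. Prkaa2, a catalytic subunit of AMP-activated protein kinase, which phosphorylates acetyl-CoA carboxylase, had a ratio of 1.39 with an interval of 1.17 to 1.65. Acss1 had 114, 107, 91.4 and 104 in WT and 150, 120 and 130 in null libraries, a ratio of 1.28 with an interval of 1.12 to 1.47. Hacd2, a dehydratase of the elongation cycle, had a ratio of 0.691 with an interval of 0.508 to 0.931, and its libraries overlapped.

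Marker sums also differed between the intestine groups. The 3 tuft cell markers summed to 58.6 to 66.7 in WT and 135 to 153 in Cd36 null libraries, and the 6 markers of stem and dividing cells to 283 to 312 and 206 to 218. The 5 ileal markers summed to 983 to 1046 and 689 to 748, with Fabp6 at 263 to 284 and 62.9 to 77.7. Fgf15, another marker of that list, went the other way, at 5.16 to 10.3 in WT and 20.8 to 27.7 in null libraries. Of the fat cell markers, Cidec stood at 22.1 to 33.9 in WT and 34.1 to 47.1 in null libraries, and Adipoq at most at 1.04 in WT and at 0 in null libraries. The 4 enteroendocrine markers summed to 232 to 254 in WT and 325 to 344 in null libraries, and the 5 goblet markers to 5692 to 6005 and 6534 to 6591. The 7 T cell and intraepithelial lymphocyte markers summed to 691 to 910 in WT and 589 to 613 in null libraries, and the 6 fibroblast markers to 19.2 to 33.3 and 9.95 to 11.7. The 4 Paneth markers summed to 637 to 708 and 510 to 574. The sums of these lists all differed without overlap. The 5 proximal markers overlapped, summing to 770 to 832 in WT and 818 to 878 in null libraries. The 5 macrophage markers did too, at 2.07 to 5.13 and 1.85 to 5.32. The sums of the 9 enterocyte markers overlapped, at 30246 to 31201 and 31037 to 32031, but single markers moved in opposite directions. Fabp1, Apoa1, Apoa4 and Alpi were higher in null without overlap, with Fabp1 at 3294 to 3492 and 3876 to 4104. Fabp2, Anpep and Mttp were lower without overlap, with Fabp2 at 9141 to 9519 and 7650 to 7940. Vil1 and Sis overlapped. The part of these differences in the Me1 and Scd2 ratios was not tested.

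The Mfge8 and Cd36 comparisons use different libraries and different tests, so their values are only set side by side. Elovl1 had a ratio of 1.80 in Mfge8 null enterocytes and of 0.892 in Cd36 null intestine. Me1 had ratios of 2.19 and 3.45. The first is a ratio of means that rests on null 2 and 3, and Me1 did not pass in enterocytes (log2 change 0.52, limma adjusted p 0.719). Whether the effects differ between the experiments was not tested. Cd36 itself was lower in Mfge8 null enterocytes, at 65.8 against 135 in WT, a log2 change of -1.10 with a standard error of 0.25 (limma adjusted p 0.0234).

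Whether the members follow Srebf1 from library to library was examined over the 9 enterocyte libraries. Of 9 members, 0 had a correlation with Srebf1 that passed an exact permutation test over all pairings after Benjamini-Hochberg adjustment over the 9, and 0 had an unadjusted p under 0.05 by Pearson's r. The largest Pearson's r in size was that of Elovl1, with r = -0.53 and rho = -0.42 (exact permutation p 0.132 and 0.270, adjusted 0.361 and 0.524). Without the 2 libraries farthest in Srebf1, null 2 and null 5, it was -0.74. For Acly r was -0.52 and rho -0.25 (exact permutation p 0.156 and 0.521, adjusted 0.361 and 0.781), and r turned to 0.41 without those libraries. Fasn likewise had r = -0.47 and rho = -0.15 (exact permutation p 0.200 and 0.708, adjusted 0.361 and 0.797), and 0.14 without them. The negative relations of Acly and Fasn with Srebf1 thus rest on null 2 and null 5. Me1 had r = 0.50 and rho = 0.67 (exact permutation p 0.178 and 0.0589, adjusted 0.361 and 0.524), and r of 0.33 without those libraries. Taken as deviations from the genotype means, r was -0.31 for Elovl1, -0.62 for Acly, -0.60 for Fasn and 0.70 for Me1, and 0 of 9 passed. With null 2 alone left out, 1 of 9 passed, Elovl1.

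**Figure D5:**
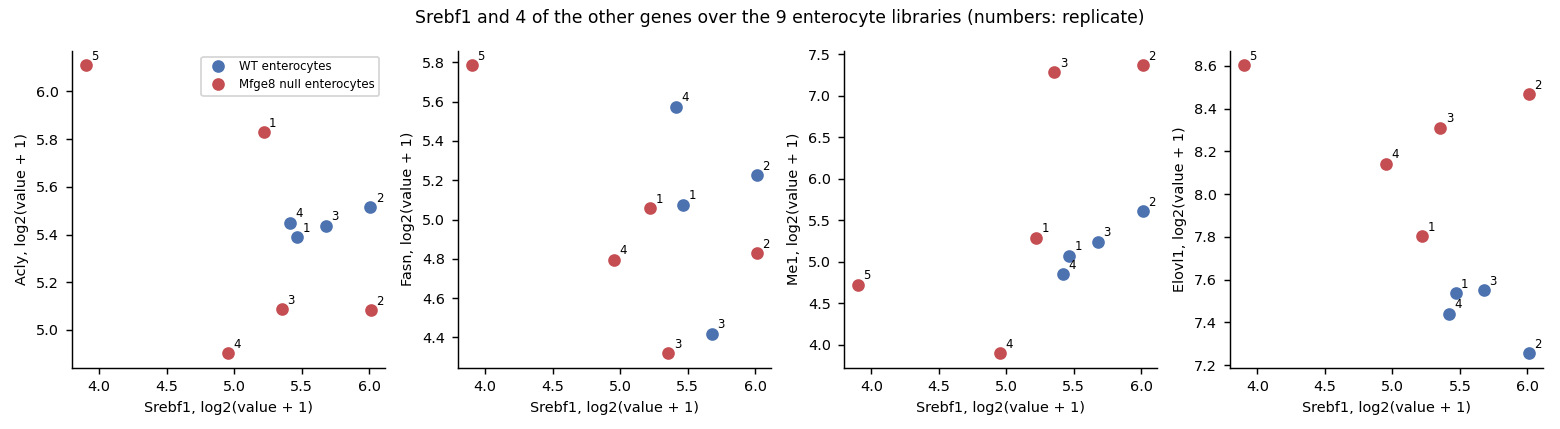
Levels of Acly, Fasn, Me1 and Elovl1 against Srebf1 in the 9 enterocyte libraries, all as log2(value + 1), with replicate numbers beside the dots and WT in blue, Mfge8 null in red. Null 5 has the lowest Srebf1 and the highest Acly, Fasn and Elovl1, and null 2 and null 3 stand above the rest in Me1.

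Position along the gut was also set against the members, by the score of proximal minus ileal markers. The score spanned -2.16 to 0.0092 over the WT and -3.28 to -0.025 over the null libraries, so enterocyte libraries of both genotypes differed widely in it. Of 10 members, 0 passed an exact permutation test with it after adjustment over the 10. Scd1 came closest, with r = -0.66 and rho = -0.74 (exact permutation p 0.0610 and 0.0300, adjusted 0.610 and 0.300), and r of -0.47 without WT 1 and null 5. Among the genotypes' deviations r was -0.72. With so few Scd1 reads the relation is no more than a description.

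The genes most like a member over the 9 enterocyte libraries were found by Pearson's r of log2(value + 1), as a description. For Srebf1 they were Lyrm5 at 0.981, Thrb, a thyroid hormone receptor, at 0.951 and Slc25a11, a mitochondrial carrier, at 0.946. For Elovl1 they were Ankrd50 at 0.959, Selk at 0.956 and Ap5b1 at 0.956. For Me1, chosen after its values were seen, they were Pik3r2 at 0.902, Glce at 0.885 and Rragc at 0.885. The 9 points share genotype and size factors.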

How the data were processed

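Groups and replicate numbers came from the sample labels. The build was mm10, and HISAT2 2.1.0, Trimmomatic 0.38.1, DESeq2 2.11.40 and HTSeq 0.91 were used, per the submitters' processing notes. Their order and settings, the use of molecular identifiers and the strand setting are not given in the sources used here. Intervals and floors cover counting error only, since reads that are not collapsed are not separate molecules. The authors deposited a normalised signal in 2 tables. Within a library 100% of values were whole multiples of 1 step to within 1e-06, so they were taken as reads divided by a size factor (0.855 to 1.28 and 0.939 to 1.105). In WT 4 and Mfge8 null 3 that factor is so near 1 that the step is less certain, and edgeR, which called 317 genes in all libraries, was also run without them, where it called 255. Tests stayed within a table.

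The Mfge8 comparison used limma 3.58.1 in R 4.3.3, on log2(value + 1) with a trend; tests were 2-sided and adjusted by Benjamini-Hochberg at a threshold of 0.05. Log2 changes on that scale understate the change of low genes. Tested on simulated data for 9252 genes, it called 14.3% of 1.5-fold, 59.4% of 2-fold and 93.4% of 4-fold changes. These rates rest on 63, 64 and 61 changed genes. The simulation gave all genes 1 shared spread between libraries, so the rates need not hold for widely spread genes such as Me1. The Cd36 comparison used ratios of summed reads over summed size factors with exact 95% intervals (scipy 1.17.1), after a chi-square comparison of library pairs over genes with at least 20 reads. Alternatives used edgeR 4.0.16, DESeq2 1.42.0, other pseudocounts, filters and scalings, a regional covariate, a replicate block and left-out libraries. Replicate numbers showed no clear pairing of the libraries (correlation of same-numbered deviations -0.12 to 0.21 over 4 pairs). The mean correlation with other numbers was -0.055 to 0.027, and 4 pairs are too few to exclude a pairing.

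All 10 members are named, of the other pathway genes every one that passed in either comparison, and the 3 genes most like Srebf1 or a called member. The members, lists and tests were chosen with earlier results of these data known. Gene positions and promoter windows came from RefSeq, and overlaps from GENCODE M21.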

Additional observations from a re-analysis of the deposited data

Results flagged for a closer look

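Acaca in WT intestine 4 stood far from the other 3 libraries of its group. It had 8.21 normalised reads, from 8 reads, while the next highest library had 2.07. The gap was 0.848 of the range of the group. Of 30 groups of 4 or 5 libraries checked in this way, chance alone flags about 1 in 20.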

How the results depend on the processing

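Recomputed under the alternatives, 347 values were counted as unchanged, and 35 lost a call (13 each for Acss1 and Idh1, 7 for Pgd and 2 for Elovl1). Unchanged meant that a log2 change kept its direction and its side of the threshold, or a count of genes stayed within 1.5 times. For a Cd36 ratio it meant only that the ratio stayed within its main counting interval, whichever side of the fold it was on. The 303 genes called in the Mfge8 comparison became 140 to 388 when 1 library was left out: leaving out WT 1 gave 140, WT 2 gave 173, null 3 gave 185 and null 5 gave 199. DESeq2 called 430, edgeR 317, and centring on the library median 276, of which 156 were higher and 120 lower. The count of 1 member called became 2 with DESeq2 (Elovl6 added), 0 to 1 with 1 library left out and 0 without null 2 and 3 together. The 3 other pathway genes became 1 with the regional score, 1 with the replicate block, 0 with edgeR without the 2 libraries of uncertain step, and 0 to 3 with 1 library left out. Whether the replicate numbers pair the libraries was not settled. With the replicate block 233 genes were called, Elovl1 among them at an adjusted p of 0.0480 (limma). In the Cd36 comparison a fold of 1.5 left 1 member, Me1, and 1 other pathway gene, and leaving out 1 library gave 2 members throughout and 2 to 5 other genes. Leaving out 1 library gave 0 to 1 members related to Srebf1. Directions turned for members far from the threshold. Acly had log2 changes of 0.037 with edgeR, 0.046 with DESeq2, 0.13 with edgeR without the 2 uncertain libraries, 0.17 without null 2 and 3, and -0.22 to 0.079 with 1 library left out. Fasn had 0.26 and 0.14 in the same pair of settings and -0.33 to 0.051 with 1 left out, and Me1 -0.56 without null 2 and 3. With 1 left out, Scd2 had -0.15 to 0.72 and Elovl5 -0.19 to 0.065. The cause was not tested. The added settings, edgeR without 2 libraries and limma without null 2 and 3, were chosen after seeing the data. Depth limits Acaca and Scd1, which had 1 to 11 and 0 to 8 reads per library.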

Other observations

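Several other enzymes of the pathway had few or no reads in these libraries. Of the 52 other pathway genes, 14 stayed below the filter in enterocytes and 16 in intestine. Fads1, the desaturase that works on polyunsaturated fatty acids, had 4.70 ± 1.91 normalised reads in WT (SD, n = 4) and 3.47 ± 2.03 in Mfge8 null enterocytes (SD, n = 5), and 8.26 to 13.5 in WT and 6.33 to 14.9 in Cd36 null intestine. Its partner Fads2 had 4 and 3 reads in all WT and all null enterocyte libraries and 5 and 5 in the intestine groups. Acacb, the carboxylase bound to mitochondria, had 4, 3, 5 and 2 reads in the same order of groups. Elovl3, Scd3 and Olah were at 0 in all 16 libraries, where a count of 0 allows up to 3.53 RPM in the shallowest library. Thrsp, a lipogenic gene of liver and fat, had 1 and 6 reads in the enterocyte groups and 0 in both intestine groups. A 3′ tag that falls outside the annotated end of a gene would not be counted for it, and this was not tested.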
